A study of Mus musculus with 12 samples.

Results

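The transcripts described here encode the enzymes that write, copy and remove DNA methylation: the TET dioxygenases Tet1, Tet2 and Tet3, the DNA methyltransferases Dnmt1, Dnmt3a and Dnmt3b, the hemimethylated-DNA reader Uhrf1 and the glycosylase Tdg. These 8 genes were taken by symbol from 24411 symbols listed in each of 12 RNA-seq libraries, and all 8 were among the 16133 genes with at least 1 TPM in at least 2 libraries. They were chosen for their function, with earlier results of these data known. The libraries were made from NR5A1(+) cells of mouse fetal gonads, the somatic cells that express the nuclear receptor NR5A1 and later form the supporting and steroid-producing lineages.

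The samples form 5 groups. XY gonads taken at E10.8 and cultured for 19.2 h with the iron chelator deferoxamine (Dfo, 150 µM) gave 3 libraries. Control XY gonads in culture gave 3 libraries, and control XX gonads in culture gave 2. Gonads labelled E11.5 gave 2 XY and 2 XX libraries, with WT in their titles. All groups carry the genotype Nr5a1-hCD271, in which a human CD271 surface tag marks cells that express Nr5a1. The explants included neighbouring tissue (aorta, mesonephros and mesenchyme), and the culture protocol also stands on the E11.5 labels, so the handling of those samples is not settled. Whether replicates are separate embryos, litters or pools is not given, so p-values describe only the spread among these libraries, which may be technical.

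DNMT3A and DNMT3B place methyl groups on unmethylated CpG sites, and DNMT1, brought to newly copied DNA by UHRF1, restores the pattern after replication. TET1, TET2 and TET3 oxidise the methyl group in steps, using iron(II) and 2-oxoglutarate, and TDG cuts out the further oxidised bases so that base excision repair can insert an unmodified cytosine. The dependence of TET enzymes on iron is why these genes are of interest beside an iron chelator. In mouse gonadal somatic cells, iron-dependent chromatin enzymes such as the histone demethylase KDM3A are known to act in sex determination.

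The 12 libraries held 14578 to 18931 symbols above 0. The Dfo label was borne out by the transferrin receptor gene Tfrc, at 249.2 ± 23.9 TPM in Dfo XY and 67.2 ± 14.99 TPM in control XY (SD, n = 3 each). The glucose transporter gene Slc2a1 stood at 544.05 ± 134.2 TPM in Dfo XY and 41.7 ± 6.19 TPM in control XY (SD, n = 3 each). Dfo XY replicates 1 and 2 held 13.6 and 24.6 TPM of Xist, the RNA of X inactivation, against at most 0.9 TPM in the other XY libraries, and the results below are also given without them. Replicates 1 and 2 of each cultured XY group lay close together, with a median absolute log2 difference of 0.09 for Dfo XY and 0.08 for control XY, against 0.14 to 0.20 in the other pairs. The RNase P RNA Rpph1 took 19.5% to 23.6% of all TPM in Dfo XY, 15.3% to 20.3% in control XY and 6.96% to 12.2% in the other groups. TPM is a share of the library, so the median of all genes moved too, and members are read against it. The summed level of 8 markers of NR5A1(+) gonadal cells was 498.5 to 564.1 TPM in Dfo XY, 664.5 to 804.0 TPM in control XY and 1286 to 1361 TPM in control XX. At E11.5 it was 775.7 to 898.3 TPM in XY and 994.0 to 1187 TPM in XX. Of these 8 markers 4 were called lower with Dfo, where 15.5% of all genes were called (limma). In culture 5 were called lower in XY than in XX, where 25.2% of all genes were called and 3585 of 4064 calls were lower in XY. Germ cell markers summed to 66.1 to 82.5 TPM in Dfo XY, 81.3 to 94.5 TPM in control XY and 64.9 to 69.2 TPM in control XX. At E11.5 they summed to 56.7 to 78.0 TPM in XY and 67.8 to 84.1 TPM in XX. The median marker was low, at a log2(TPM + 1) of 0.51 to 1.36 in Dfo XY and 1.71 to 2.12 in control XY. The sums therefore rest mostly on the more abundant genes of the list. Of these 10 markers 1 was called lower with Dfo (limma), and their median log2 change was -0.80, where that of all genes was -0.17. In culture 1 was called higher in XY than in XX. Against E11.5, 2 were called higher in cultured XY and 1 lower in cultured XX. Their part in the results was not tested. In bulk RNA, fewer cells of a type and less RNA per cell cannot be told apart.

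Per unit of transcript length, the maintenance pair was the most abundant and Tet1 and Dnmt3b the least. In control XY, Dnmt1 averaged 114.7 TPM and Uhrf1 96.0 TPM, followed by Tdg at 82.3 TPM, Dnmt3a at 80.9 TPM, Tet3 at 48.7 TPM, Tet2 at 26.8 TPM, Tet1 at 13.7 TPM and Dnmt3b at 11.4 TPM. The ranges of neighbours in this order overlapped from Dnmt1 down to Dnmt3a and not below it. The order was the same in Dfo XY, where Dnmt1 averaged 107.1 TPM and Dnmt3b 6.58 TPM, with overlaps of Dnmt1 with Uhrf1, Uhrf1 with Tdg, and Dnmt3a with Tet3. In control XX the means ran from 172.6 TPM for Dnmt1 over 158.9 TPM for Uhrf1, 127.8 TPM for Dnmt3a and 92.1 TPM for Tdg to 17.8 TPM for Dnmt3b, and no neighbours overlapped. At E11.5 they ran from 154.6 TPM for Dnmt1 to 13.6 TPM for Tet1 in XY and from 166.2 to 12.5 TPM for the same genes in XX. The order Tet3, Tet2, Tet1 held in all 5 groups. In both XX groups Dnmt3a stood above Tdg, and in both E11.5 groups Dnmt3b stood above Tet1, although at E11.5 in XY the ranges of those last genes overlapped. Over all libraries Tdg varied least, from 75.1 to 104.4 TPM, a 1.39-fold range. Dnmt3b varied most, over a 3.41-fold range, with its lowest value of 6.15 TPM in Dfo XY and its highest in E11.5 XX.

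**Figure D1:**
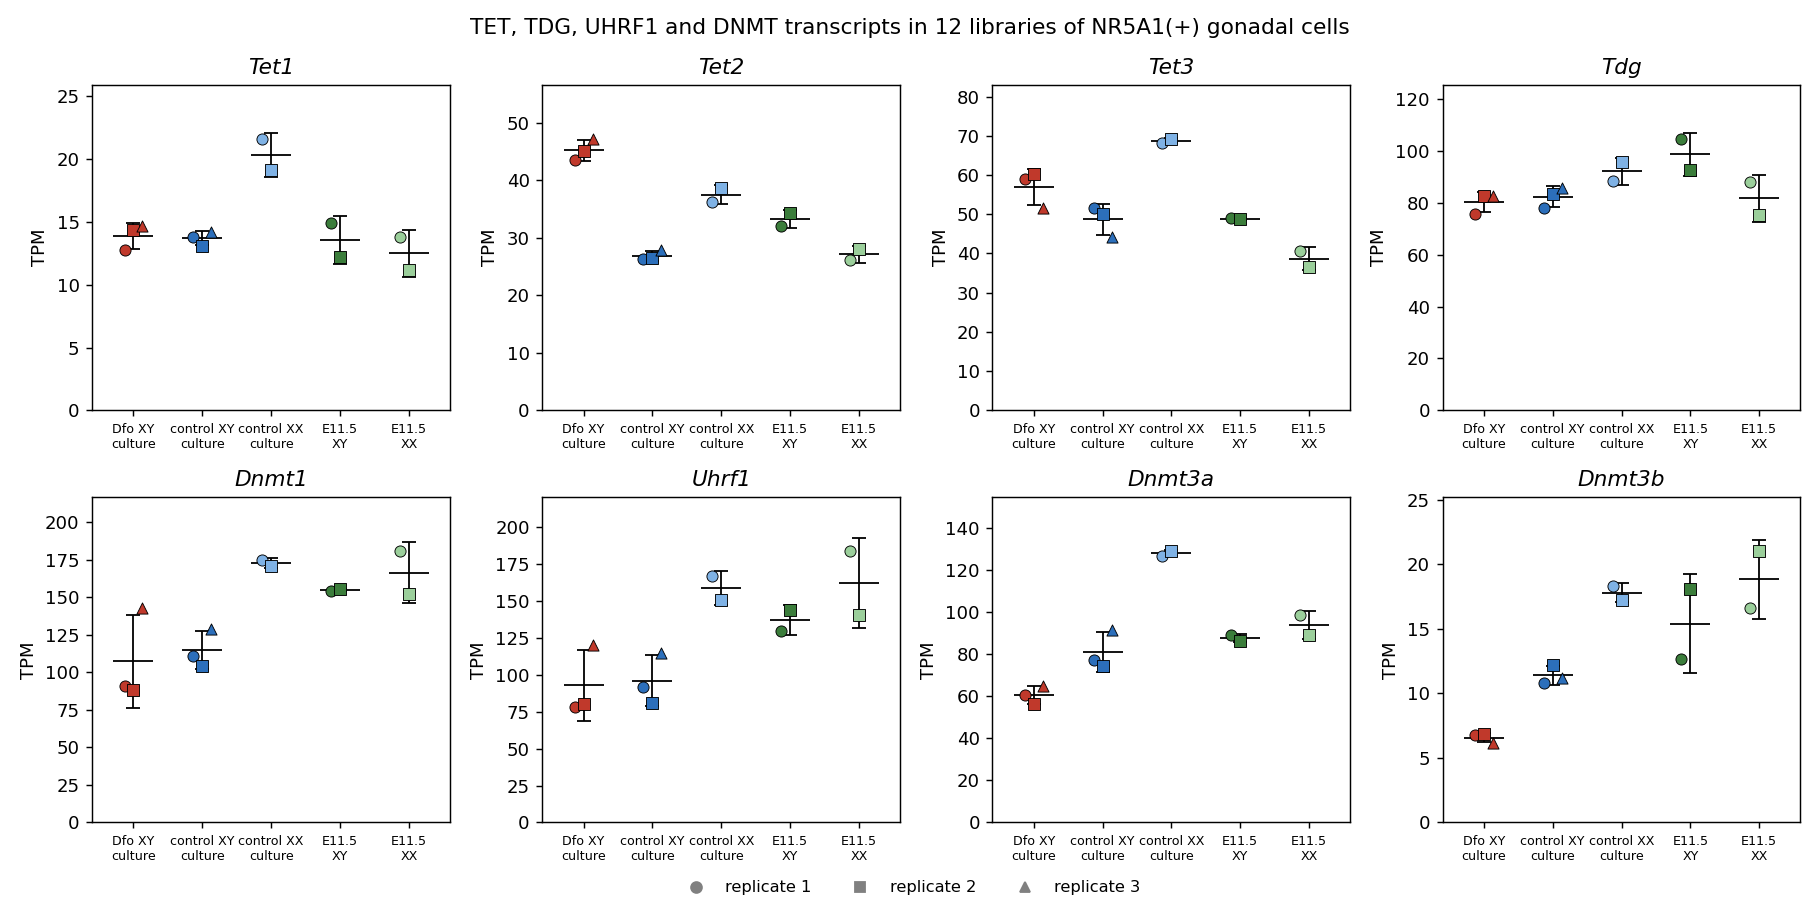
TPM (linear axis from 0) of each of the 8 genes in every library, by group; points are libraries, with shape giving the replicate number, and the bar and whiskers are the mean ± SD. Tet2 sits at 43.5 to 47.1 TPM in Dfo XY and at 26.2 to 27.9 TPM in control XY, while Dnmt3b sits at 6.15 to 6.83 TPM in Dfo XY and at 10.81 to 12.2 TPM in control XY.

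The main comparison asked which of these genes changed when iron was chelated in XY gonads. Tet2 rose, Dnmt3a and Dnmt3b fell, and the other 5 did not pass the test. That is 3 of 8 called by limma at an adjusted p below 0.05 over all genes, 1 higher and 2 lower, where 15.5% of all genes tested were called. The median log2 change was -0.05 over the 8 genes and -0.17 over all genes. Of all calls 32.1% were higher with Dfo as deposited, and 59.7% with median-of-ratios scaling, which put the median of all genes at -0.05 and kept the directions of these 3 genes.

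Tet2 (ENSMUSG00000040943, chr3:133463679-133545139, minus strand, mm10) is the TET enzyme without a CXXC domain of its own. It had 43.5, 45.02 and 47.1 TPM in Dfo XY replicates 1 to 3, against 26.2, 26.4 and 27.9 TPM in control XY. The groups did not overlap, and the lowest Dfo library also stood above the highest library of every other group, 38.6 TPM in control XX. The log2 change was 0.73 ± 0.10 (SE), a 1.66-fold difference (limma, adjusted p = 0.000412). Between libraries of the same replicate number it was 0.71, 0.75 and 0.74. The call held in 24 of 24 other settings, with log2 changes of 0.70 to 0.88. Without the Xist-holding Dfo libraries, where the lone Dfo sample is assumed to vary like the other groups, the change was 0.79 (limma, adjusted p = 0.0154).

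Iron chelators are known to stabilise the hypoxia-inducible factors, so the sequence upstream of Tet2, the member that rose, is shown with the letters of the hypoxia-response core. The 250 bases before its RefSeq start on GRCm38.p6 (chr3:133544391-133544640, minus strand, no annotated exon) hold 1 match to ACGTG or GCGTG on either strand, in capitals, beginning 16 bases before the start. Of 32851 RefSeq windows of this length, 38.595% hold at least 1 such match, and a match is no evidence of binding. The window has 83.6% G and C and 51 CpG sites, where the median window has 6.
Tet2 upstream: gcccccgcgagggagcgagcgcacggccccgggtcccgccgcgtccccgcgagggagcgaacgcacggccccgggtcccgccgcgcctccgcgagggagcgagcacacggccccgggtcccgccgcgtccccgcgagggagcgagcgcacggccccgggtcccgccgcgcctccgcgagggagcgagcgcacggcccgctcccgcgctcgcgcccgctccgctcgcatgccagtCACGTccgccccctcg

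Tet3 (chr6:83362373-83459084, minus strand, mm10), which in mouse oocytes supplies the oxidation of the paternal genome, had 58.9, 60.3 and 51.7 TPM in Dfo XY, against 51.7, 50.1 and 44.2 TPM in control XY. The groups overlapped only at 51.7 TPM, with replicate 3 the lowest in each. Its log2 change of 0.22 ± 0.10 did not pass (limma, adjusted p = 0.166; 95% interval 0.0024 to 0.44). It passed under 1 of 24 other settings, median-of-ratios scaling, at 0.37 (limma, adjusted p = 0.0485).

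Tet1 (chr10:62804570-62908996, minus strand, mm10), the TET enzyme known from embryonic stem cells and primordial germ cells, had 12.7, 14.3 and 14.7 TPM in Dfo XY, against 13.8, 13.1 and 14.2 TPM in control XY. All control values lay within the Dfo range, with a log2 change of 0.02 (95% interval -0.30 to 0.34). Tdg (chr10:82629828-82650799, plus strand, mm10), which removes the bases that TET enzymes oxidise furthest, had 75.8, 82.7 and 82.5 TPM in Dfo XY, against 77.8, 83.2 and 85.8 TPM in control XY. These groups overlapped too, and the 95% interval of the log2 change was -0.24 to 0.17. Tdg shares 367 exonic bases with Glt8d2 on the other strand, which stood at no more than 0.63 TPM in any library.

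Of the de novo enzymes, Dnmt3a (ENSMUSG00000020661, chr12:3806007-3914443, plus strand, mm10) had 60.5, 56.5 and 64.75 TPM in Dfo XY, against 77.0, 74.1 and 91.7 TPM in control XY. All 3 Dfo libraries lay below all 3 control libraries. The log2 change was -0.41 ± 0.10, or 1.33-fold lower (limma, adjusted p = 0.0160). The call held in 18 of 24 other settings. It was lost without control XY replicate 3 (limma, adjusted p = 0.0512), without Dfo XY replicate 1 (adjusted p = 0.0508) or replicate 2 (adjusted p = 0.0727), and without both of these (log2 change -0.31, adjusted p = 0.274). It was also lost with replicates 1 and 2 of the cultured XY groups averaged (log2 change -0.43, adjusted p = 0.0929) and without the variance trend (adjusted p = 0.0530). The antisense gene Dnmt3aos, which shares 133 exonic bases, stood at no more than 2.28 TPM in any library.

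Dnmt3b (ENSMUSG00000027478, chr2:153649450-153687730, plus strand, mm10), the de novo enzyme most active in the early embryo, had 6.75, 6.83 and 6.15 TPM in Dfo XY, against 10.81, 12.2 and 11.2 TPM in control XY. The 3 Dfo libraries were the lowest of all 12. The log2 change was -0.71 ± 0.17, or 1.64-fold lower (limma, adjusted p = 0.0136), and the call held in 20 of 24 other settings. It was lost without control XY replicate 2 (limma, adjusted p = 0.0596) and under quantile normalization (adjusted p = 0.0615). It was also lost with the close replicates averaged (log2 change -0.73, adjusted p = 0.105) and without the Xist-holding libraries (log2 change -0.79, adjusted p = 0.115).

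The window before Dnmt3b, the member that fell most, is shown for its letters alone. Of matches to the hypoxia-response core, Tdg had 5 in its window. Those beginning 28 and 27 bases before its start overlap on opposite strands. Uhrf1 had 4 before its RefSeq start 2 and 0 before its start 1. Dnmt3a had 2 overlapping matches before its start 3 and 0 before its starts 1 and 2. Dnmt1 had 1 before its start 3 and 0 before its starts 1 and 2, and Tet1 and Tet3 had 0. The Dnmt3b window's 250 bases (chr2:153649199-153649448, plus strand, GRCm38.p6, RefSeq, no annotated exon) hold no match to the same letters, 75.2% G and C and 21 CpG sites. From the absence of these letters in 1 window nothing follows about any factor.
Dnmt3b upstream: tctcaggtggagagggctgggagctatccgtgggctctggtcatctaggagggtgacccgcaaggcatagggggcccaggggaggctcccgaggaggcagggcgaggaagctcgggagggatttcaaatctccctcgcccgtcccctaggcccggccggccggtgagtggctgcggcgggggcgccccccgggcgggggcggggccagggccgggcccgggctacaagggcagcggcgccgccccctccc

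The maintenance pair did not pass. Dnmt1 (chr9:20907209-20959888, minus strand, mm10) had 90.6, 88.2 and 142.6 TPM in Dfo XY, against 111.0, 104.2 and 128.8 TPM in control XY. Replicate 3 was the highest in both groups, and it alone was higher with Dfo than in the control of its number. By replicate number the log2 differences were -0.29, -0.24 and 0.15, and the 95% interval of the fitted change was -0.47 to 0.22. Uhrf1 (chr17:56303321-56323486, plus strand, mm10) had 78.1, 80.0 and 120.6 TPM in Dfo XY, against 92.0, 81.2 and 114.9 TPM in control XY, with an interval of -0.44 to 0.31. Without Dfo XY replicate 3 the log2 change of Dnmt1 was -0.35 (limma, adjusted p = 0.0521) and that of Uhrf1 -0.26 (adjusted p = 0.275). With replicate 3 alone in the Dfo group they were 0.32 and 0.34. By replicate number the log2 differences of Uhrf1 were -0.23, -0.02 and 0.07, so those of numbers 2 and 3 were small. The sign of both genes differed between replicate 3 and the others.

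Dnmt1 and Uhrf1 followed each other more closely than any other pair of the 8 genes, with a root mean square difference of 0.10 between their centred log2 profiles over 12 libraries. The ratio of Dnmt1 to Uhrf1 stayed between 0.98 and 1.28 in all libraries. Start 3 of Dnmt1 and start 2 of Uhrf1 in RefSeq each have the E2F letters TTTCGCGC in the 250-base upstream window. The windows before Dnmt1 starts 1 and 2 and Uhrf1 start 1 hold 0 matches. The windows of the other members hold no match either. The search covered 4 spellings on both strands (TTTCCCGC, TTTCGCGC, TTTGCCGC, TTTGGCGC), which 1.860% of all windows hold, a share per window and not per gene. Each spelling contains CpG, and the matching windows of Dnmt1 and Uhrf1 hold 26 and 30 CpG sites, where the median window has 6. The share among windows so rich in CpG is not given here. The 30 bases around each match are printed in the direction of transcription, with the match in capitals, from chr9:20952824-20952853 (minus strand, inside an annotated Dnmt1 exon, with the E2F letters on the opposite strand) and chr17:56304117-56304146 (plus strand, outside exons). Whether a factor binds either was not tested.
Dnmt1 window: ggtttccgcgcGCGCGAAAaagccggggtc
Uhrf1 window: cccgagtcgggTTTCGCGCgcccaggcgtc

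**Figure D2:**
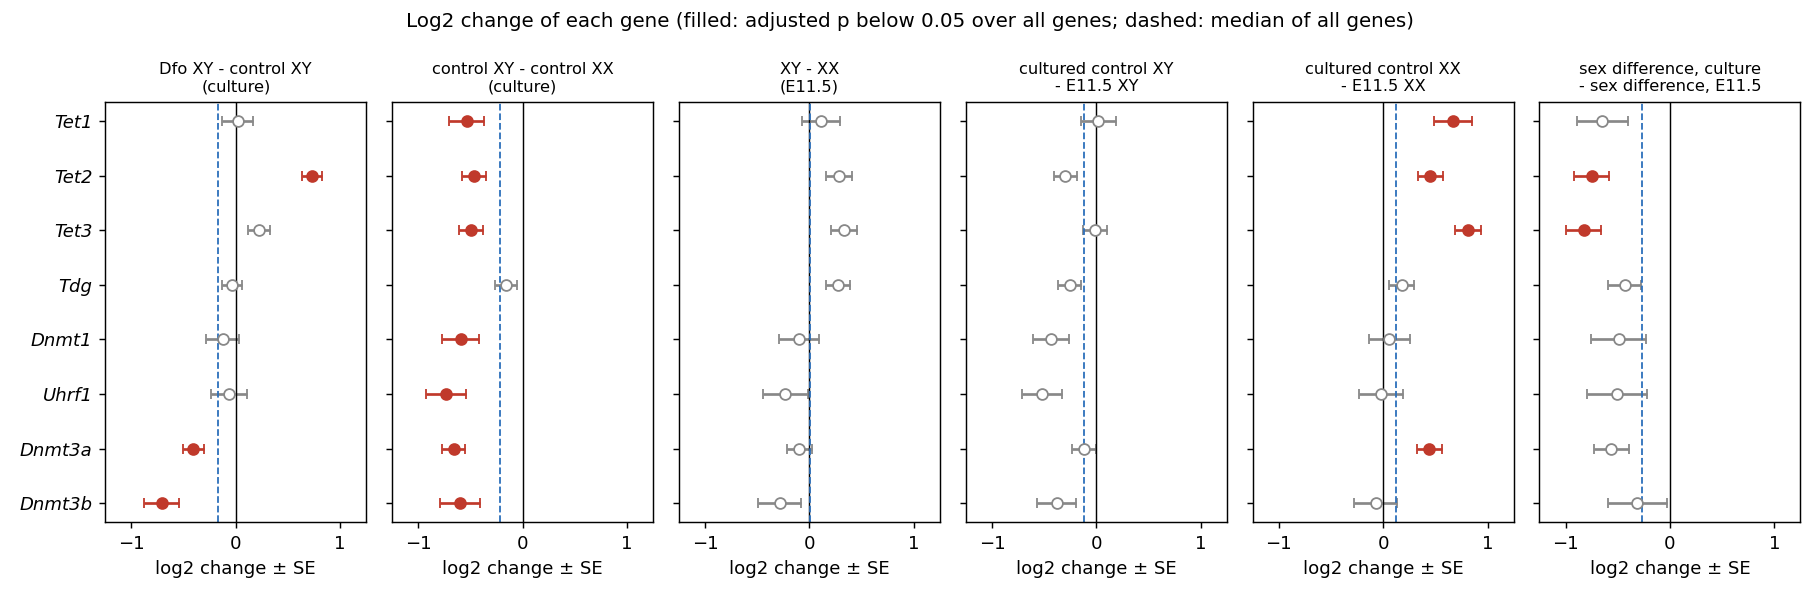
Log2 change ± SE of the 8 genes in each of 6 comparisons, from limma on log2(TPM + 1); filled points have an adjusted p below 0.05 over all genes tested and the dashed line is the median of all genes. With Dfo, Tet2 stands at 0.73 and Dnmt3b at -0.71, while in culture 7 of 8 genes are lower in XY than in XX, where the median of all genes is itself at -0.22.

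The makeup of the 2 families within each library does not depend on the scaling of the library. Tet2 made up 37.8%, 37.6% and 41.5% of the summed TPM of the 3 TET genes in Dfo XY, against 28.6%, 29.5% and 32.3% in control XY. The Dfo libraries were the highest of all 12, since the other groups ranged from 28.8% to 37.1%. Tet3 remained the largest part, at 45.5% to 51.2% in Dfo XY and 51.2% to 56.4% in control XY. The TET sum, which unlike the shares does depend on the scaling, was 116.1 ± 3.21 TPM in Dfo XY and 89.2 ± 2.75 TPM in control XY (SD, n = 3 each).

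The ratio of Tet2 to Dnmt3a sets a gene called higher with Dfo over a gene called lower. Its separation of Dfo XY from control XY therefore follows from the pair and adds no support to those calls. It was 0.719, 0.797 and 0.728 in Dfo XY, against 0.341, 0.356 and 0.304 in control XY, and 0.265 to 0.398 in the remaining groups. The ratio of summed TET to summed DNMT transcripts was 0.729, 0.790 and 0.532 in Dfo XY, against 0.461, 0.470 and 0.372 in control XY. Here Dfo replicate 3, which had the most Dnmt1, was nearest to the controls but still above them. These ratios are descriptions and were given no test.

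**Figure D3:**
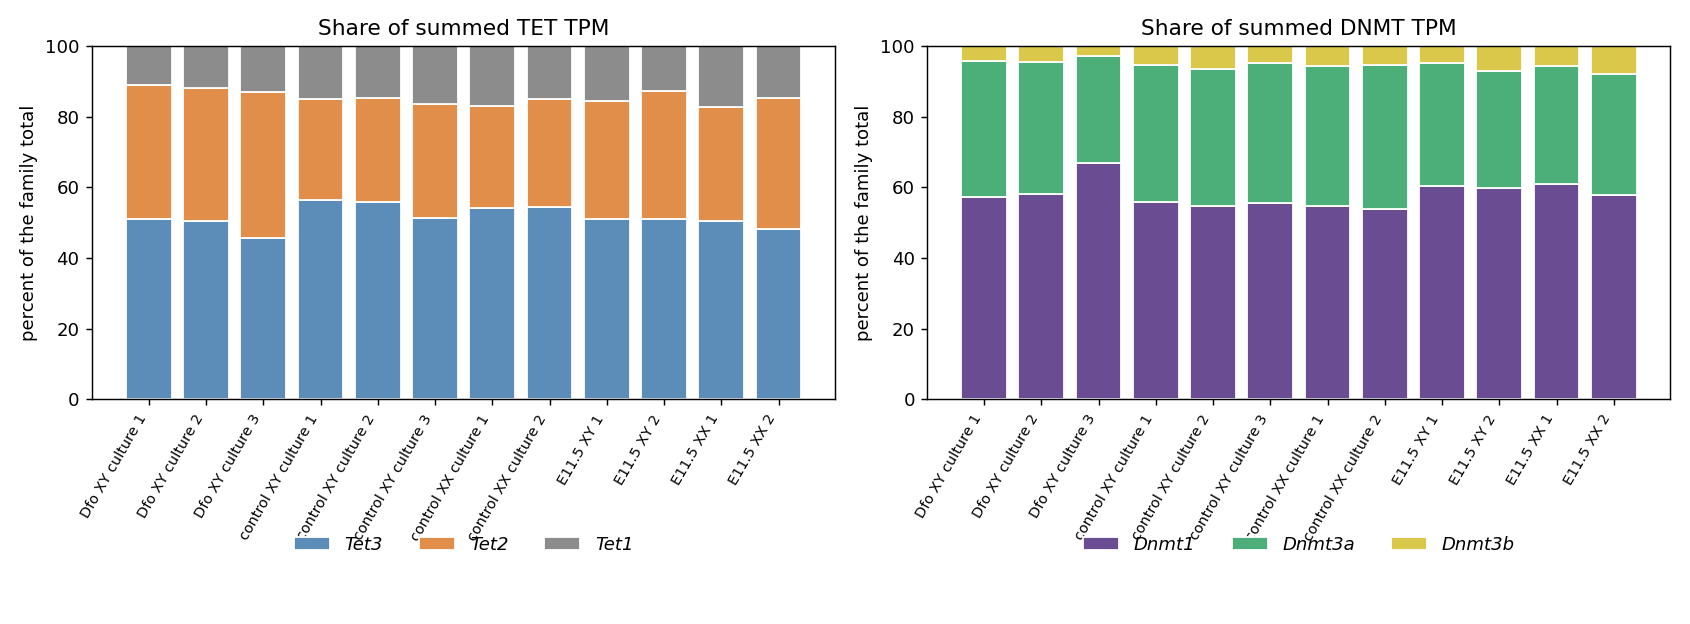
Percent of the summed TPM of the TET genes (left) and of the DNMT genes (right) held by each gene, 1 bar per library. Tet2 takes 37.6% to 41.5% of the TET sum in Dfo XY and 28.6% to 32.3% in control XY, and Dnmt3b takes 2.88% to 4.51% of the DNMT sum in Dfo XY and 4.83% to 6.42% in control XY.

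**Figure D4:**
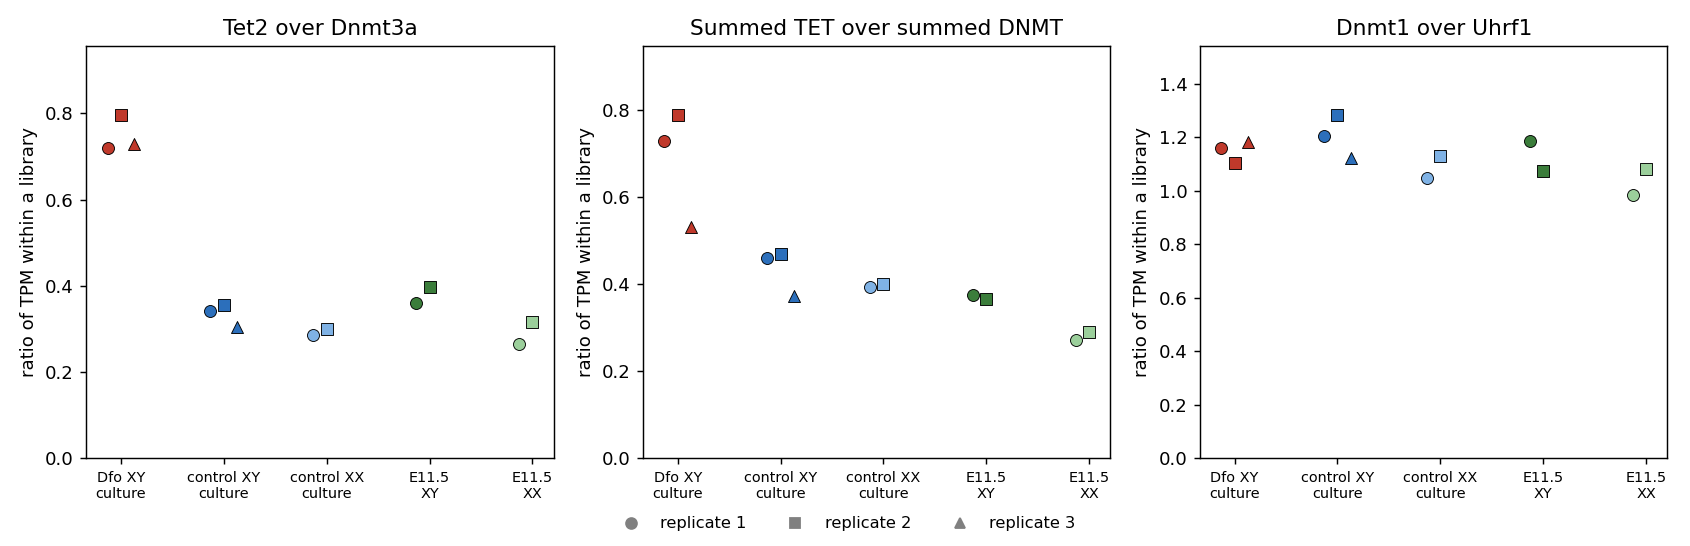
Ratios of TPM within each library (linear axes from 0), with 1 point per library and shape giving the replicate number. The ratio of Tet2 to Dnmt3a, genes called in opposite directions with Dfo, is 0.719 to 0.797 in Dfo XY and 0.304 to 0.356 in control XY. That of Dnmt1 to Uhrf1 overlaps between these groups.

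Genes that work with these enzymes were called in both directions with Dfo. All counts here are of genes tested, called by limma over all genes against 15.5% of all genes called. Among 16 genes of base excision, deamination and the GADD45 family, 2 rose and 4 fell. Gadd45b, a stress-induced gene linked to active demethylation, averaged 27.0 TPM in Dfo XY and 6.61 TPM in control XY (log2 change 1.89 ± 0.30, limma, adjusted p = 0.00140). Gadd45a averaged 54.1 TPM in Dfo XY and 23.25 TPM in control XY (1.20 ± 0.16, adjusted p = 0.000430). Gadd45g and the DNA ligase gene Lig3 fell by 0.61 and 0.40 on the log2 scale. Without the Xist-holding libraries 1 gene of this list rose, Gadd45a, and 0 fell.

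Of 7 partners of TET enzymes, Ogt, the O-GlcNAc transferase that binds TET2 and TET3, rose, with 111.1 TPM in Dfo XY and 84.6 TPM in control XY (log2 change 0.39 ± 0.09, limma, adjusted p = 0.0143). Sall4 and Cxxc4, both at low levels, fell by 0.86 and 0.79. Of 6 partners of de novo methylation, Nsd1, whose H3K36 dimethylation mark recruits DNMT3A, fell by 0.63 ± 0.09 (limma, adjusted p = 0.000609), with 58.25 TPM in Dfo XY and 90.5 TPM in control XY. Of 11 partners of maintenance methylation, Uhrf2 rose by 0.37 and Cdca7, a part of the CDCA7-HELLS remodelling complex, fell by 0.81, with overlapping groups. Of 7 readers of methylated DNA, Mbd3 fell by 0.40. Without the Xist-holding libraries Nsd1 was again called lower by limma. Of the other 3 lists 0 genes were then called, and at an unadjusted p below 0.05 there were 4 among the maintenance partners, 1 among the readers and 1 among the TET partners.

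Of 15 genes of a list on 2-oxoglutarate and vitamin C, which holds genes that make, use or transport these cofactors or clear succinate, fumarate and 2-hydroxyglutarate, 0 rose and 5 fell. Among them were the succinate dehydrogenase subunit genes Sdhb, with a log2 change of -0.66, and Sdhc, at -0.67, which use up succinate, fumarate hydratase Fh1, at -0.41, which uses up fumarate, and Ogdh, at -0.55, which uses up 2-oxoglutarate. The list's median log2 change was -0.24, where that of all genes was -0.17. Of 9 genes of the methyl donor cycle 0 rose and 3 fell, namely Ahcy, which clears S-adenosylhomocysteine, Mtr and Mat2a. Without the Xist-holding libraries 2 genes of the 2-oxoglutarate list fell, Ogdh and Sdhb, and 0 of the donor cycle (limma), with 2 of these at an unadjusted p below 0.05. Of 16 germline genes known to be silenced by promoter methylation in somatic cells, 7 passed the filter, and 0 rose and 0 fell (limma), with 1 at an unadjusted p below 0.05. Their summed level over all 16 was 3.51 to 4.70 TPM in Dfo XY and 5.61 to 18.5 TPM in control XY.

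Cell cycle genes were followed because Dnmt1 and Uhrf1 are highest in replicating cells. Of 31 S-phase genes 1 rose (Ccne2, at a log2 change of 0.87) and 0 fell, and of 20 genes of G2 and mitosis 0 rose and 11 fell, such as Ube2c, at -1.10, and Ccnb2, at -1.59. The median S-phase gene stood at 29.0, 30.2 and 42.65 TPM in Dfo XY, against 32.2, 39.8 and 42.8 TPM in control XY. The median gene of G2 and mitosis stood at 29.2, 27.5 and 38.7 TPM in Dfo XY, against 45.2, 44.6 and 52.9 TPM in control XY. Replicate 3 was the highest in each group for both lists, as it was for Dnmt1 and Uhrf1. Relative to the median S-phase gene, Dnmt1 was 3.12, 2.92 and 3.34 in Dfo XY and 3.45, 2.62 and 3.01 in control XY, which overlap. Without the Xist-holding libraries 3 genes of G2 and mitosis fell, Ccnb2, Plk1 and Ube2c, and 1 S-phase gene, Cdc6, was called higher in place of Ccne2. Mesenchyme markers summed to 327.2 to 367.6 TPM in Dfo XY and 525.6 to 603.5 TPM in control XY, with 2 of 6 called lower. Neural crest and neuron markers summed to 74.6 to 88.2 TPM in Dfo XY and 123.1 to 173.9 TPM in control XY, with 2 of 6 called lower. Erythroid markers summed to 474.2 to 1545 TPM in Dfo XY and 131.2 to 1186 TPM in control XY, with Hbb-bs at 0 in all of these, and macrophage markers to 60.6 to 84.65 TPM in Dfo XY and 34.5 to 73.95 TPM in control XY. None of the erythroid or macrophage markers was called by limma, with 1 and 0 at an unadjusted p below 0.05, and the part of such other cells in these changes was not tested.

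In culture without Dfo, XY cells had less of 7 of the 8 transcripts than XX cells, all but Tdg, where 25.2% of all genes were called and 3585 of the 4064 calls were lower in XY. Dnmt3a had 77.0, 74.1 and 91.7 TPM in control XY, against 126.8 and 128.8 TPM in control XX, a log2 difference of -0.66 ± 0.11 (limma, adjusted p = 0.00216). For none of the 8 genes, uncalled Tdg included, did an XY library reach the XX level. The share of all genes so separated is not given here. Uhrf1 averaged 96.0 ± 17.2 TPM in control XY (SD, n = 3) and 158.9 ± 11.4 TPM in control XX (SD, n = 2), the largest difference of the 8 at -0.73 ± 0.19 (limma, adjusted p = 0.0164). The log2 difference was -0.59 for Dnmt1, -0.60 for Dnmt3b, -0.54 for Tet1, -0.49 for Tet3 and -0.47 for Tet2 (limma, adjusted p between 0.00917 and 0.0349). Tdg averaged 82.3 TPM in control XY and 92.1 TPM in control XX, with a 95% interval of the log2 difference of -0.39 to 0.07; its sign, not called, turned under some scalings (-0.22 to 0.27).

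The number of sex differences in culture depended on the scaling of the libraries. With median-of-ratios scaling, without Rpph1, or without the 50 most abundant genes, 1 of 8 was called in each case, Dnmt3a. Under quantile normalization 0 of 8 were called by limma, and 2 had an unadjusted p below 0.05. Of all calls 11.8% were higher in XY as deposited and 51.5% with median-of-ratios scaling, which put the median of all genes at 0.07. Relative to the all-gene median of -0.22, the Dnmt3a difference was -0.44 and that of Tet2 -0.25. Dnmt3a was called in 23 of 24 other settings. Tet1, Dnmt1, Uhrf1 and Dnmt3b lost their calls when control XY replicate 1 or 2 or either control XX library was left out, Tet3 when either XX library was left out, and Tet2 without XX replicate 2. Dnmt3b also lost its call without control XY replicate 3 and without the Xist-holding Dfo libraries, which also ended that of Tet1.

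Among the lists, calls in culture were mostly lower in XY, by limma and against the same 25.2%. Of 6 partners of de novo methylation 5 were lower, among them Nsd1 (90.5 TPM in control XY, 150.4 TPM in control XX), the H3K9 methyltransferase genes Ehmt1 and Ehmt2, and Setd2. Of 31 S-phase genes 12 were lower, of 15 genes of the 2-oxoglutarate list 8 and of 7 methyl-DNA readers 4, with 0 higher in each. Gadd45a went the other way, with 23.25 TPM in control XY and 13.5 TPM in control XX (log2 difference 0.72 ± 0.18, limma, adjusted p = 0.0142). Over the 24 other settings the S-phase count ranged from 0 to 20 lower and that of de novo partners from 1 to 5. The neural crest and neuron markers summed to 123.1 to 173.9 TPM in control XY and 65.6 to 78.7 TPM in control XX, with 5 of 6 called higher in XY. Erythroid markers summed to 131.2 to 1186 TPM in control XY and 72.9 to 94.5 TPM in control XX, with 2 of 6 called higher in XY and Hbb-bs at 0 in all. Macrophage markers summed to 34.5 to 73.95 TPM in control XY and 20.8 to 32.4 TPM in control XX, with 2 of 6 called higher. Of mesonephric markers 2 of 5 were called higher in XY (52.8 to 61.6 TPM in control XY, 33.3 to 57.3 TPM in control XX), and of mesenchyme markers 3 of 6 lower (525.6 to 603.5 TPM in control XY, 768.2 to 824.7 TPM in control XX). The part of these cells in the sex differences was not tested.

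At E11.5 none of the 8 genes was called between the sexes. Limma called 0 of 8 where 2.29% of all genes were called, and 3 had an unadjusted p below 0.05. These were Tet3, with 49.1 and 48.7 TPM in XY and 40.7 and 36.6 TPM in XX (log2 difference 0.33 ± 0.12, limma, adjusted p = 0.162), Tet2 at 0.28 ± 0.12 and Tdg at 0.27 ± 0.12. For Tet2, Tet3 and Tdg the 2 XY libraries stood above the 2 XX libraries, the opposite order to that in culture, where Tdg was not called. The share of all genes so separated is not given here. Dnmt1 had 154.1 and 155.1 TPM in XY, between the 151.9 and 180.5 TPM of XX (95% interval -0.52 to 0.32). Dnmt3a had 88.9 and 86.2 TPM in XY and 98.6 and 89.1 TPM in XX, narrowly apart, with an interval of -0.36 to 0.17.

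The difference between these sex differences was tested as an interaction, and 2 of 8 were called where 1.33% of all genes were. Subtracting the E11.5 sex difference from the cultured one gave -0.82 ± 0.17 for Tet3 (limma, adjusted p = 0.0388) and -0.75 ± 0.16 for Tet2 (limma, adjusted p = 0.0487), with the median of all genes at -0.26. All 8 estimates were negative, and 5 had an unadjusted p below 0.05. The calls of Tet3 and Tet2 held in 7 and 6 of 24 other settings. Under each of the 4 other scalings 0 of 8 were called by limma, and 2 to 4 had an unadjusted p below 0.05. With 1 library left out, both held only without control XY replicate 3 or Dfo XY replicate 3. Without E11.5 XX replicate 1 Tet3 alone was called, and without any other library 0 of 8 were. Of all interaction calls 14.4% were positive as deposited and 61.8% with median-of-ratios scaling.

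XX cells in culture had more of all 3 TET transcripts and of Dnmt3a than XX cells at E11.5. This made 4 of 8 called, all higher in culture, where 9.07% of all genes were called and the all-gene median was 0.12. Tet3 had 68.2 and 69.1 TPM in control XX culture, against 40.7 and 36.6 TPM in E11.5 XX, a log2 difference of 0.82 ± 0.12 (limma, adjusted p = 0.00219). Its call held in 23 of 24 other settings, and was lost with only the groups compared in the fit (limma, adjusted p = 0.123). Tet1 averaged 20.4 TPM in culture and 12.5 TPM at E11.5 (0.67 ± 0.18), Tet2 37.5 and 27.1 TPM (0.45 ± 0.12) and Dnmt3a 127.8 and 93.9 TPM (0.44 ± 0.12), the cultured XX value first in each. Their calls held in 11, 9 and 9 of 24 settings. Tet3 alone was called without replicate 1 or 2 of control XY, Dfo XY or control XX, and without E11.5 XX replicate 2, and without E11.5 XX replicate 1 there were 2 called. Of all calls 81.1% were higher in culture as deposited and 55.7% with median-of-ratios scaling. Endothelial markers summed to 97.8 to 104.55 TPM in cultured XX and 232.5 to 294.4 TPM in E11.5 XX, with 4 of 5 called lower in culture. Erythroid markers summed to 72.9 to 94.5 TPM in cultured XX and 515.0 to 743.8 TPM in E11.5 XX, with 1 of 6 called lower, and 1 of 6 macrophage markers was called higher. Their part in the 4 calls was not tested.

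In XY, limma called 0 of 8 between cultured control XY and E11.5 XY, where 5.66% of all genes were called (46.2% of them higher in culture, and 67.6% without the 50 most abundant genes), and 4 had an unadjusted p below 0.05. Uhrf1 averaged 96.0 TPM in cultured XY and 137.1 TPM at E11.5 (log2 difference -0.52 ± 0.19, limma, adjusted p = 0.128). Dnmt1 averaged 114.7 TPM in cultured XY and 154.6 TPM at E11.5 (-0.43 ± 0.18, adjusted p = 0.163). The other genes with an unadjusted p below 0.05 were Tet2 (-0.30 ± 0.11, limma, adjusted p = 0.131) and Tdg (-0.26 ± 0.11, limma, adjusted p = 0.169). All cultured XY libraries lay below both E11.5 XY libraries for these 4 genes and for Dnmt3b. The share of all genes so separated is not given here. Without Dfo XY replicate 3 in the shared fit Dnmt1 alone was called. Of 20 genes of G2 and mitosis 13 were lower in cultured XY, such as Mki67 (132.6 TPM in cultured XY, 229.6 TPM at E11.5), and of 31 S-phase genes 0 were called by limma, with 18 at an unadjusted p below 0.05. The 3 Tet1 values of cultured XY, 13.1 to 14.2 TPM, lay within the 12.2 to 14.9 TPM of E11.5 XY. Neural crest and neuron markers summed to 123.1 to 173.9 TPM in cultured XY and 40.7 to 45.04 TPM in E11.5 XY, with 2 of 6 called higher in culture. Endothelial markers summed to 57.5 to 119.0 TPM in cultured XY and 181.3 to 186.1 TPM in E11.5 XY, with 2 of 5 called lower, and 1 of 6 macrophage markers was called higher. The part of these cells was not tested.

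Around these genes, Idh1, which makes 2-oxoglutarate in the cytosol, was higher in culture in both sexes, at 585.7 TPM in cultured XX against 237.7 TPM in E11.5 XX (log2 difference 1.30 ± 0.10, limma, adjusted p = 1.32e-05) and 371.0 TPM in cultured XY against 209.6 TPM in E11.5 XY (0.82 ± 0.09, limma, adjusted p = 0.000434). Apex1, the endonuclease that follows TDG in base excision repair, was also higher in both, by 0.59 in XX and 0.52 in XY. Uhrf2 was lower in cultured XY than at E11.5, by 0.65 on the log2 scale (adjusted p = 0.00951 by limma), and the replication clamp gene Pcna by 0.65 (adjusted p = 0.0481). The germline genes held 0 calls in either comparison by limma, with 1 at an unadjusted p below 0.05 in XX and 0 in XY.

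**Figure D5:**
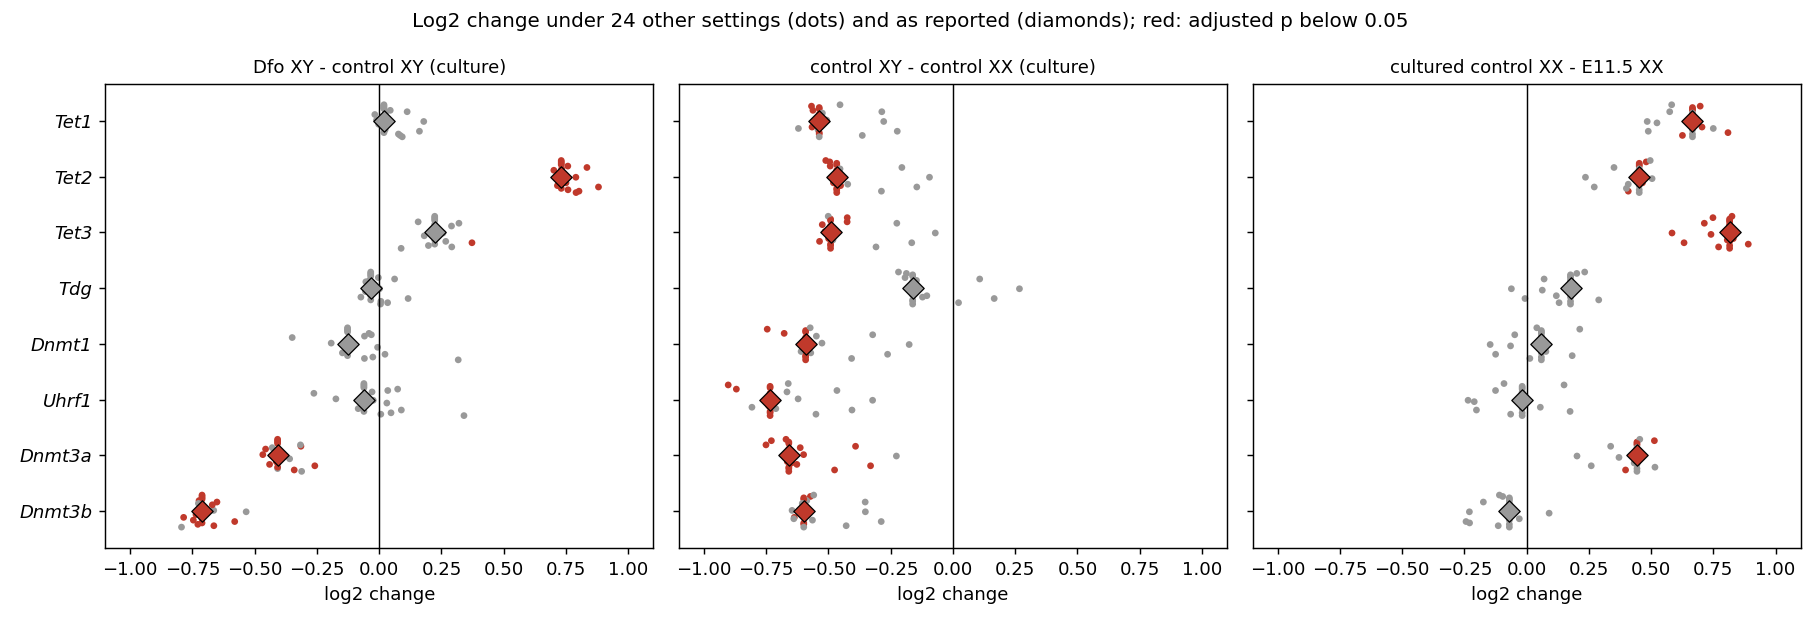
Log2 change of each gene as reported (diamonds) and under 24 other settings (dots) in 3 comparisons; red marks an adjusted p below 0.05 from limma. With Dfo every dot of Tet2 is red and lies between 0.70 and 0.88, whereas the sex differences in culture move toward 0 under other scalings.

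Which genes shared a profile with each of the 8 was described over the 12 libraries, among 10500 genes with a mean of at least 5 TPM, by the root mean square difference between centred log2 profiles. The nearest to Tet2 were Ankrd11 (0.07), Skil (0.09) and Rb1cc1 (0.11), set beside a spread of 0.30 (SD) of Tet2 itself. The nearest to Tet3 were Ubn2, Mast3 and Kdm6b, and to Tet1 Cacul1, Tor1aip2 and Sec23b. Uhrf1 was nearest to Ssrp1, Rrm1 and Mcm6, with differences of 0.08 to 0.09 against its own SD of 0.41, and Dnmt1 to Dock1, Cdk5rap2 and Matr3. Dnmt3a was nearest to Calr, Tsc22d1 and Setd8, at 0.05 to 0.07. Dnmt3b, the member with the largest SD at 0.54, had no neighbour closer than 0.16 (Med9). Tdg was nearest to Sec22b, Ldlrad3 and Lrba. The libraries share groups and scaling, so likeness of this kind is a description.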

How the data were processed

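RNA of NR5A1(+) cells was turned into libraries by a SMART-Seq Stranded Kit protocol, per the labels. The authors deposited TPM values, 1 table per library, made with STAR 2.7.10b, RSEM and R 4.1.2 on mm10, per the submitters' processing notes. Not given in the sources used here are the annotation, the RSEM version and how strand entered the counting. Since TPM values do not carry depth, it is unknown, and no counting interval was computed.

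Values were transformed to log2(TPM + 1), which understates changes of low genes. Genes with at least 1 TPM in at least 2 libraries (16133) were fitted with limma 3.58.1 in R 4.3.3, 1 coefficient per group, all 12 libraries, variance trend on. P-values were adjusted by Benjamini-Hochberg over all genes within each of 6 comparisons, and a gene was called below 0.05. All adjusted p-values are from this model. The script was tested on simulated data.

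The members and lists were chosen with earlier results of these data known. From each of the other pathway lists up to 4 called genes per comparison were named, by smallest adjusted p, and for each member the 3 genes of nearest profile. List symbols were matched to older names through RefSeq synonyms. Positions are from GENCODE M21 and upstream sequences from RefSeq (GRCm38.p6). The pseudogenes Tdg-ps and Dnmt3a-ps1 were not analysed here, so reads shared with them cannot be told apart from those of Tdg and Dnmt3a.

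For the pairing of control XY and Dfo XY by replicate number, deviations from group means correlated across genes at 0.21, 0.12 and 0.34 for numbers 1 to 3, each above 0.1, so a fit with the number as a block was made, and it changed no call between these groups. The correlation was not computed for XX or E11.5 libraries. Control 1 with Dfo 2 had 0.14 and control 2 with Dfo 1 had 0.18, so numbers 1 and 2 are not told apart by the data. The 24 other settings cover the pseudocount, filters, 4 scalings, the libraries in the fit, the variance trend, the replicate block, each library left out, averaging of close replicates and removal of the Xist-holding Dfo libraries. Python 3 with pandas and matplotlib drew the figures.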

Additional observations from a re-analysis of the deposited data

Results flagged for a closer look

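The sex difference of Tet3 differed between culture and E11.5, by the interaction term of limma, at -0.82 on the log2 scale (adjusted p = 0.0388). The log2 difference of XY against XX was -0.49 in culture, where Tet3 was lower in XY, and 0.33 at E11.5, where it did not pass the test. The sex difference of Tet2 likewise differed, at -0.75 (limma, adjusted p = 0.0487). Both rest on 2 XX libraries on either side, and both calls were lost under each of the 4 other scalings of the libraries. The cause was not tested.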

How the results depend on the processing

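Of the results for single genes, none changed direction while called. With Dfo against control XY, 3 of 8 were called as reported, and 1 with replicates 1 and 2 of cultured XY averaged and 1 without the Xist-holding libraries (Tet2 in both), 4 with median-of-ratios scaling, 2 under quantile normalization and 2 without the variance trend, with a range of 2 to 3 when 1 library was left out. For control XY against control XX, 7 became 1 with median-of-ratios scaling, 0 under quantile normalization, 1 without the 50 most abundant genes, 1 without Rpph1 and 2 with averaging, with a range of 1 to 7 when 1 library was left out. For E11.5 the count was 0 in all settings. For cultured XY against E11.5 XY, 0 became 2 under the replicate block (Dnmt1 and Uhrf1), and 0 to 1 when 1 library was left out. For cultured XX against E11.5 XX, 4 became 1 with median-of-ratios scaling, quantile normalization, without the 50 most abundant genes, with averaging and without the Xist-holding libraries, 2 without the variance trend and 0 with only the groups compared, with 1 to 4 when 1 library was left out. For the interaction, 2 became 6 under the replicate block (all but Tet1 and Dnmt3b) and 0 under each other scaling, with only the groups compared, without the trend, with averaging and without the Xist-holding libraries, with 0 to 3 when 1 library was left out. For the 8 genes the replicate block, within culture and within E11.5, changed no call of the Dfo comparison, where it also gave 3. Nor did it change their calls in the sex comparisons or in cultured XX against E11.5 XX. Nothing in the labels ties the numbers of the XX or E11.5 libraries to those of other groups, so the samples there share only a number.

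Over all genes, the counts called ranged over the settings from 834 to 3051 for Dfo (2498 as reported), 614 to 5021 for sex in culture (4064), 0 to 925 for sex at E11.5 (370), 184 to 1804 for culture against E11.5 in XY (913), 0 to 2210 in XX (1463) and 8 to 1742 for the interaction (215). The share of calls that were higher moved with the scaling, for Dfo from 32.1% to 59.7%, for sex in culture from 11.8% to 51.5%, for cultured XY against E11.5 from 46.2% to 67.6%, for XX from 81.1% to 55.7% and for the interaction from 14.4% to 61.8%. The cause of these shifts was not tested. The depth is unknown, groups hold 2 or 3 libraries, and list counts under these settings were computed after seeing the data.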
